A study of Mus musculus with 44 samples.

Results

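Squamous epithelium and cornified envelope genes were followed in biopsies of the ventral gastric corpus mucosa, a glandular tissue, across 4 groups of female BalbC mice aged 13 months. The set was chosen by name and role and holds 37 of the 31484 genes with a transcript in the count table: 3 basal keratins, 4 suprabasal keratins, 4 stress keratins, 1 hair-type keratin, the regulator Trp63, 5 desmosome genes, 9 precursors of the cornified envelope, 2 crosslinkers, 7 late differentiation genes and the serpin Serpinb5. WT/PEG (11 libraries) were wild-type mice given the vehicle polyethylene glycol, and WT/NTZ (9 libraries) were wild-type mice given netazepide, an antagonist of the gastrin receptor also named YF476. KO/PEG (13 libraries) and KO/NTZ (11 libraries) were mice with both alleles of Atp4b, the beta subunit of the H+/K+ATPase, disrupted at its first exon by a neomycin cassette, given vehicle or netazepide. The loss is carried in the germ line, so every cell of a KO mouse lacks the subunit, and the line is known to lack acid secretion. Each library was counted as 1 sample by its label, and where the labels do not tie libraries to separate animals the p-values measure only the spread between these libraries. The labels give KO/PEG more libraries than the study describes mice in that group, so some of the 13 may share an animal and p-values that use them may be too small.

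Stratified squamous epithelium renews from a basal layer that makes the keratins Krt5, Krt14 and Krt15 under the transcription factor Trp63, and its daughter cells switch keratins as they rise. In the outer layers transglutaminases crosslink loricrin, involucrin and the small proline-rich proteins into a cornified envelope beneath the plasma membrane. In the mouse stomach this epithelium lines the forestomach and meets the glandular corpus at the limiting ridge. The gastric glands themselves are simple epithelium, which holds desmosomes and can make single envelope proteins without forming a squamous layer. In these bulk samples a smaller number of cells of a type and less RNA per cell cannot be told apart.

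The libraries held 6065084 to 21945124 estimated counts each, so that the smallest signal taken as seen, 3 counts, was worth 0.137 to 0.495 CPM, the count scaled to a common library total. All levels below are CPM after TMM normalization, unless given per kb of transcript. Atp4b was at 2139 to 5738 CPM in the WT libraries and at 2.28 to 40.6 CPM in the KO libraries, so each library matched its labelled genotype. Of the 37 genes, 34 passed the filter on low counts and were tested, and Krt84, Sprr1b and Sprr2h did not. Animals numbered 100 or above made up all 11 WT/PEG libraries, 4 of 9 WT/NTZ, 7 of 13 KO/PEG and 1 of 11 KO/NTZ. The part of this split in the results was not tested apart from the alternatives given at the end.

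Single libraries, in all 4 groups, held basal, suprabasal and outer-layer genes of a cornifying squamous epithelium, though not every member of the set. In all, 5 squamous genes outside the set, Spink5, Asprv1, Flg, Rptn and Hrnr, which act in the outermost layers, summed to at least 9.46 CPM in 14 libraries and to at most 2.01 CPM in the other 30. Libraries are named here as genotype and animal number. The 14 were WT_121, WT_128, WT_130 and WT_172_WT_PEG_2 of WT/PEG, WT_86, WT_92, WT_98, WT_103, WT_117, WT_118 and WT_171 of WT/NTZ, KO_109 of KO/PEG, and KO_27 and KO_36 of KO/NTZ. That is 4 of 11 WT/PEG, 7 of 9 WT/NTZ, 1 of 13 KO/PEG and 2 of 11 KO/NTZ libraries. The limit of 5 CPM between them was set after the values were seen, and the 14 are not a group of the study, so no test was made between them and the rest.

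The outer-layer genes Lor, Krtdap, Sbsn, Cnfn and Sprr3 summed to 23.5 to 1857 CPM in the 14 libraries and to 0.499 to 8.11 CPM in the other 30. The sum of all 37 genes, which holds Dsp, Perp and Sprr1a, was 607 to 7740 CPM in the 14 and overlapped with 412 to 1690 CPM in the 30. Of the set, 7 genes, Krt1, Krt10, Dsg1a, Sprr3, Krtdap, Sbsn and Cnfn, were higher in each of the 14 than in any of the other 30. Ivl, Tgm3, Krt6a and Krt84 went down to 0 CPM within the 14. WT_117 alone gave the highest value of 24 of the 37 genes. The level per kb of transcript in that library was 1069 CPM for Krtdap, 1056 for Krt13, 504 for Krt4, 437 for Sprr3, 348 for Lor, 336 for Krt1, 237 for Cnfn and 47 for Krt5. On the same scale Lypd3 (34.1), Sprr1b (11.5), Tgm1 (10.5) and Tgm3 (6.3) lay below Krt5, so outer-layer genes stood on both sides of it.

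**Figure D1:**
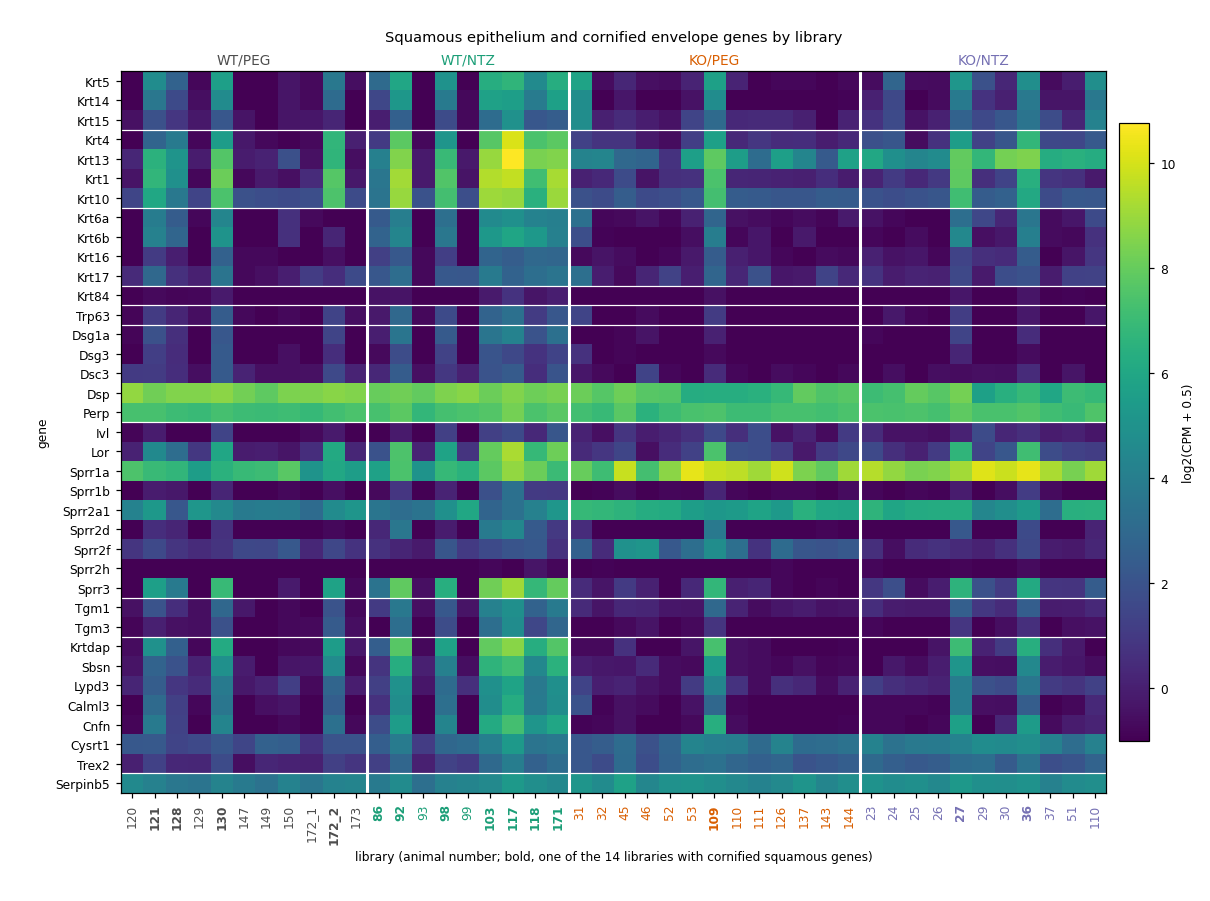
Heat map of the 37 genes (y axis, ordered by role) in 44 libraries (x axis, by group, with the 14 libraries in bold), coloured by log2(CPM + 0.5). Most genes are high in the same 14 libraries, most often in WT/NTZ, while Dsp, Perp, Sprr1a, Sprr2a1, Cysrt1 and Serpinb5 are present in all 44.

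Glandular genes were high in these biopsies too. The parietal cell genes Atp4a, Atp4b, Kcne2, Slc26a7 and Aqp4 summed to 6036 to 13662 CPM in the 11 WT libraries among the 14 and to 9332 to 15345 CPM in the other 9 WT libraries. Chief cell genes, which in the mouse include Gif, summed to 61622 to 190564 CPM in those 11 and to 88876 to 208501 CPM in those 9. Acta1, the actin of skeletal muscle, was at 80.4, 31.2 and 26.2 CPM in WT_117, WT_118 and WT_92, at most 1.06 CPM in the other 11 of the 14 and at most 6.21 CPM in the 30. Gast, which encodes the antral hormone gastrin, was at 40 CPM in WT_117, 31.3 in WT_118 and 12.1 in KO_36, and at most 0.778 CPM in the other 11. Among the 30 its highest value was 14.6 CPM, in WT_120. In KO/PEG versus WT/PEG these 5 parietal genes were lower, 3 of 4 chief cell and 3 of 4 surface mucous genes were lower, and all 6 keratins and markers of simple glandular epithelium and all 5 genes of a list of mucous neck and SPEM (spasmolytic polypeptide-expressing metaplasia) cells, Muc6, Tff2, Clu, Wfdc2 and Cd44, were higher. In that comparison 74.7% of all genes tested passed, 37.5% higher and 37.2% lower. What part the site or extent of the biopsy had in these values was not tested.

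A pair of WT/PEG libraries with 1 animal number fell on both sides. Krt4 was at 0.107 CPM in WT_172_WT_PEG_1 and 108 CPM in WT_172_WT_PEG_2, and Krt5 was at 0.107 and 12.4 CPM. The labels do not say whether the pair came from 1 mouse.

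The basal keratins Krt5, Krt14 and Krt15, which form the filaments of dividing keratinocytes, followed the 14 libraries with 2 exceptions. Krt5 ranged from 0 to 49.9 CPM in WT/PEG (median 0.178), from 0 to 56.5 in KO/PEG (median 0.164) and from 0.129 to 35.8 in KO/NTZ (median 0.69). In WT/NTZ it began at 0, with a median of 31.1 CPM and its highest level in WT_117, at 47 CPM per kb. All 4 groups reached down to the lowest values, and 4 of 9 WT/NTZ libraries lay above every WT/PEG library. Krt5 was at 6.04 CPM or above in each of the 14, and at 0 to 0.291 CPM in the other 9 WT libraries. In the other 21 KO libraries it was at or below 6.74 CPM except in KO_31 (56.5) and KO_110 of KO/NTZ (27.7).

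KO_31 and KO_110 of KO/NTZ held basal keratins with few transcripts of most outer-layer genes. Krt5, Krt14 and Krt15 were at 56.5, 26.9 and 26.5 CPM in KO_31 and at 27.7, 12.4 and 18.3 CPM in KO_110 of KO/NTZ. Trp63 was at 2.13 and 0.311 CPM. Krt1, Lor and Krtdap of the upper layers were at 0.541, 0.812 and 0.116 CPM in KO_31 and at 0.388, 1.71 and 0 CPM in KO_110. Krt5 of both lay within the range of the 14, and these upper-layer genes lay within that of the other libraries. Calml3 and Sprr3 were less low. Calml3 was at 3.36 CPM in KO_31, above the lowest of the 14 (1.11). Sprr3 was at 4.82 CPM in KO_110 of KO/NTZ, the highest of the 30 but below the lowest of the 14 (10.7).

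**Figure D2:**
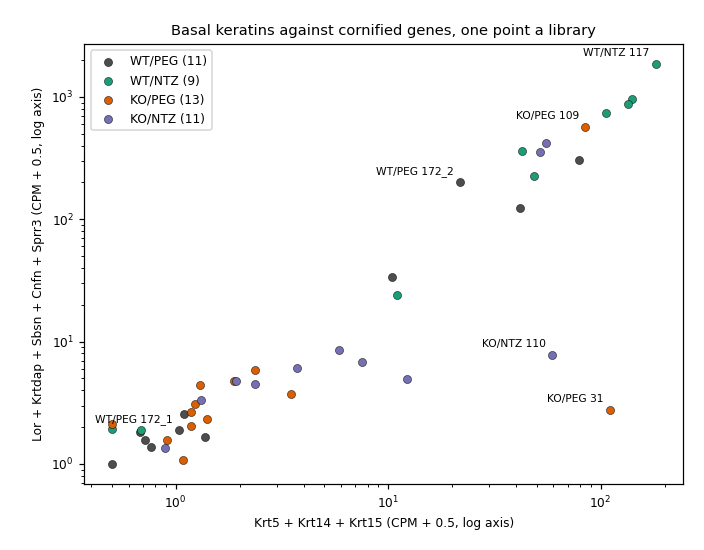
Summed basal keratins (x axis, Krt5 + Krt14 + Krt15) against summed outer-layer genes (y axis, Lor + Krtdap + Sbsn + Cnfn + Sprr3), both in CPM + 0.5 on log axes, 1 point a library, coloured by group. The 14 libraries rise together to the upper right, and KO_31 and KO_110 of KO/NTZ lie at the lower right with high basal keratins and few outer-layer transcripts.

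Trp63, the master regulator of the squamous lineage, was at most 9.66 CPM (WT_117) and reached 3 counts in 17 of 44 libraries. Its reads were assigned to the transcripts that begin at the internal start on chromosome 16 (GRCm38, position 25801916), which encode the form without the N-terminal transactivation domain. These held 541 estimated counts over all libraries, and the transcripts from the upstream starts held 1. This form is known from basal keratinocytes. Trp63 was not called in KO/PEG versus WT/PEG (log2 fold change -1.42, SE 0.92, adjusted p = 0.161). Without KO_31 it was called lower (-2.90, adjusted p = 0.0107), as was its transcript ENSMUST00000115306 with all libraries (-2.75, SE 1.12, adjusted p = 0.0362). These calls are not separate. KO_31 held 55 Trp63 counts, and in KO/PEG 55 counts (77.9%) were assigned to Trp63-201, a different transcript from the one called. The transcripts share sequence, so their split is less certain than the gene total.

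Krt13 and Krt4, the suprabasal keratins of mucosal squamous linings, behaved differently in KO and WT biopsies outside the 14 libraries. Krt13 ranged from 0.178 to 197 CPM in WT/PEG (median 0.7), from 0.372 to 1731 in WT/NTZ (median 338), from 1.15 to 229 in KO/PEG (median 19.9) and from 20.2 to 357 in KO/NTZ (median 76.8). The WT groups were split between values near 0 and high values, while every KO/NTZ library was at 20.2 CPM or above. Outside the 14, Krt13 was at 0.178 to 3.1 CPM in 9 WT libraries and at 1.15 to 319 CPM in 21 KO libraries, 20 of which were above the highest of those 9. KO_30 had 319 CPM of Krt13 with only 0.69 CPM of Krt5.

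Krt4, the usual partner of Krt13 in the filament, stayed low in those KO libraries. It was at 0.157 to 4.35 CPM in the 21 KO libraries and at 0 to 0.535 CPM in the 9 WT libraries outside the 14, and 17 of the 21 were above all 9. In WT_117 Krt4 was at 1074 CPM. In KO_30, with 319 CPM of Krt13, it was at 3.97 CPM.

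Krt1 and Krt10, the suprabasal pair of cornifying epithelium, were confined more closely to the 14 libraries. Krt1 was at 11.8 CPM or above in each of the 14 and at 2.7 CPM or below in each of the other 30. Krt10 was at least 11.2 CPM in the 14 and at most 5.69 CPM in the rest. The highest Krt1 value was 826 CPM in WT_117.

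The stress keratins Krt6a, Krt6b, Krt16 and Krt17, made in wounded or rapidly renewing squamous epithelium, reached at most 29.2, 59.3, 7.24 and 13.4 CPM. Krt6a and Krt6b share 49.3% and 50.3% of their 31-base words with each other, and Krt16 shares 51.9% with other genes, so kallisto could divide their reads. The hair-type keratin Krt84 reached 3 counts in 7 libraries, with 1.14 CPM in WT_117. None of the 4 stress keratins passed the test in KO/PEG versus WT/PEG, and Krt84 was not tested.

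The desmosome genes fell into those of squamous cells and those of all epithelia. The cadherins Dsg1a and Dsg3, which join keratinocytes, were at most 18.1 and 4.48 CPM, and their medians in WT/PEG, KO/PEG and KO/NTZ were 0. Dsc3, another cadherin, was at most 4.84 CPM. Dsp, which ties keratin filaments to the desmosome in all epithelia, was at 50.1 to 464 CPM, and Perp, a small membrane protein of the desmosome, at 89.4 to 311 CPM across the 44 libraries.

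Dsp was lower in KO mice with and without the 14 libraries. It ranged from 230 to 464 CPM in WT/PEG (median 368), from 242 to 411 in WT/NTZ (median 295), from 76.1 to 290 in KO/PEG (median 198) and from 50.1 to 313 in KO/NTZ (median 133). In 10 of 13 KO/PEG libraries it was below the lowest WT/PEG library. Dsp fell in KO/PEG versus WT/PEG by 1.04 on the log2 scale (SE 0.23, adjusted p = 8.9e-05) and by 0.95 (SE 0.27, adjusted p = 0.0036) without the 14 libraries.

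The longer Dsp transcript fell, and the shorter did not pass the test. Dsp-201 (9592 bases) held 55% to 77.3% of the Dsp counts of a WT/PEG library and 1.91% to 39.3% of those of a KO/PEG library, with no overlap. It held 37.6% to 67.6% in WT/NTZ and 4.75% to 19.5% in KO/NTZ. Tested as transcripts, Dsp-201 fell in KO/PEG versus WT/PEG by 2.54 on the log2 scale (SE 0.47, adjusted p = 1.72e-05), and the log2 fold change of Dsp-202 (7761 bases) was 0.26 (SE 0.21, adjusted p = 0.313). The transcripts share sequence, so their split is less certain than their sum.

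Among the envelope precursors, loricrin, involucrin and the small proline-rich proteins followed different patterns. Lor, the main protein of the finished envelope, was at 3.44 to 619 CPM in the 14 libraries and at 0.203 to 4.14 CPM in the other 30. Ivl, the early scaffold, was low everywhere, at most 3.92 CPM (WT_171). Outside the 14, Ivl was at 0 to 0.107 CPM in the 9 WT libraries and at 0.128 to 2.91 CPM in the 21 KO libraries, without overlap, although values under about 0.5 CPM rest on a few counts.

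Sprr1a, a small proline-rich precursor also made by stressed cells of other tissues, was high in KO libraries with and without other squamous genes. It ranged from 32 to 217 CPM in WT/PEG (median 105), from 32.4 to 455 in WT/NTZ (median 127), from 139 to 1265 in KO/PEG (median 538) and from 329 to 1274 in KO/NTZ (median 568). In 11 of 13 KO/PEG libraries it exceeded the highest WT/PEG library. The highest value per kb, 1580 CPM in KO_36, was above that of Krtdap, the leading squamous gene of WT_117.

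**Figure D3:**
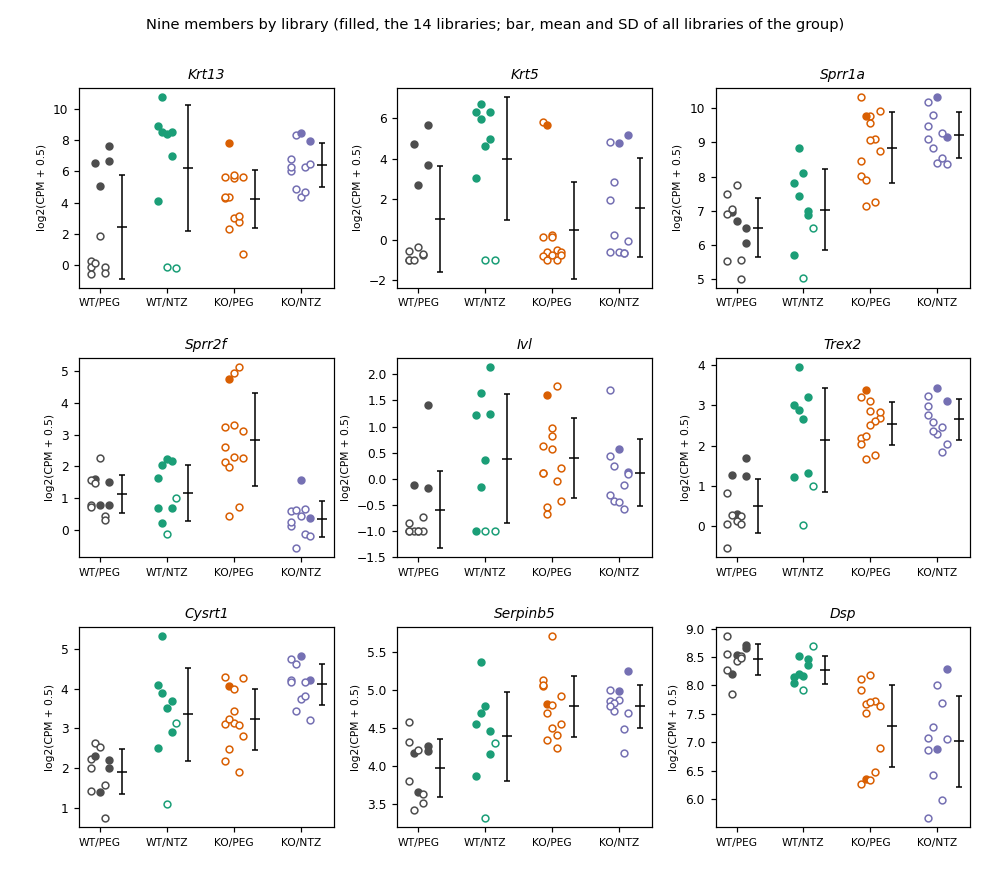
Levels of 9 genes by group (x axis) as log2(CPM + 0.5) (y axis, which does not start at 0), 1 point a library, with the 14 libraries filled and the group mean and SD as bars. Krt13 values of WT mice split into high filled and low open points, while Sprr1a, Trex2 and Cysrt1 are higher in both KO groups than in most WT/PEG libraries.

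The Sprr2 genes lie side by side on chromosome 3 and encode related short proteins. Sprr2a1, Sprr2a2 and Sprr2a3 are near-identical, so their sequences bear on what a count can mean. The coding sequence of Sprr2a1 (GRCm38, chr3:92219092-92219343, plus strand, 252 bases) is the same as that of Sprr2a2, and 96.9% of the 31-base words of Sprr2a1 transcripts occur in other genes. Sprr2a3 (chr3:92288588-92288839, plus strand) differs from them in 3 bases, shown in capitals. Sprr2f (chr3:92365896-92366126, plus strand, 231 bases) shares only the stretches in capitals, runs of at least 12 bases also in Sprr2a2 that make up 37.7% of its coding sequence, and 7.94% of its transcript's 31-base words occur elsewhere. The sequences are of the GRCm38 annotation, 5′ to 3′.
Sprr2a1: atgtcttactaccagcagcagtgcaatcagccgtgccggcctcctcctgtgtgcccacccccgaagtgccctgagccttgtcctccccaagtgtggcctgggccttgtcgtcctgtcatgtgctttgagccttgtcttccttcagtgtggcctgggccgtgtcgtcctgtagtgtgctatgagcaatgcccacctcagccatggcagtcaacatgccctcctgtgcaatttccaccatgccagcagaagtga
Sprr2a3: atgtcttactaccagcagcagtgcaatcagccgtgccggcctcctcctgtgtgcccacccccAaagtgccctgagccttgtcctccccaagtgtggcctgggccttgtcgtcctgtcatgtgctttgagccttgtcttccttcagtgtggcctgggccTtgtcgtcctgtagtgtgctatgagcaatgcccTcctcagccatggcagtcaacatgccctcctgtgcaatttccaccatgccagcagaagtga
Sprr2f: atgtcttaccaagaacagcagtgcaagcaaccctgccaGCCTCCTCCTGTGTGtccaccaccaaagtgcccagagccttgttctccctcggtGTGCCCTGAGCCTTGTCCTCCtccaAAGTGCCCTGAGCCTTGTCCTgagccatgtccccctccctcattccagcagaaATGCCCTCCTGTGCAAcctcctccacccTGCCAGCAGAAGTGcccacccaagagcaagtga
The Sprr2a genes are therefore best read as a sum, values of Sprr2a1 alone are uncertain, and Sprr2f can be read alone.

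Sprr2a1, Sprr2a2 and Sprr2a3 together separated the genotypes. Their sum ranged from 350 to 1430 CPM in WT/PEG, from 397 to 1991 in WT/NTZ, from 8509 to 58565 in KO/PEG and from 15124 to 66613 in KO/NTZ. The genotypes did not overlap in any of the 44 libraries. As 1 feature the sum rose in KO/PEG versus WT/PEG by 4.76 on the log2 scale (SE 0.35, adjusted p = 5.56e-15) and in KO/NTZ versus WT/NTZ by 5.08 (SE 0.39, adjusted p = 5.43e-14). The reads assigned to Sprr2a1 alone had medians of 18.2 CPM in WT/PEG and 61.4 CPM in KO/PEG, and 12 of 13 KO/PEG libraries exceeded the highest WT/PEG library at 37.7 CPM. NTZ did not move the sum past the threshold in KO mice (log2 fold change 0.81, SE 0.29, adjusted p = 0.0876).

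Sprr2f was lower in KO/NTZ than in KO/PEG. It ranged from 0.747 to 4.27 CPM in WT/PEG (median 1.24), from 0.409 to 4.2 in WT/NTZ (median 1.49), from 0.866 to 34.7 in KO/PEG (median 5.57) and from 0.166 to 2.47 in KO/NTZ (median 0.805). In all, 8 of 13 KO/PEG libraries exceeded every WT/PEG library, with KO_46, KO_45 and KO_109 highest at 34.7, 30.3 and 26.5 CPM. In 7 of 11 KO/NTZ libraries Sprr2f was below the lowest KO/PEG library.

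**Figure D4:**
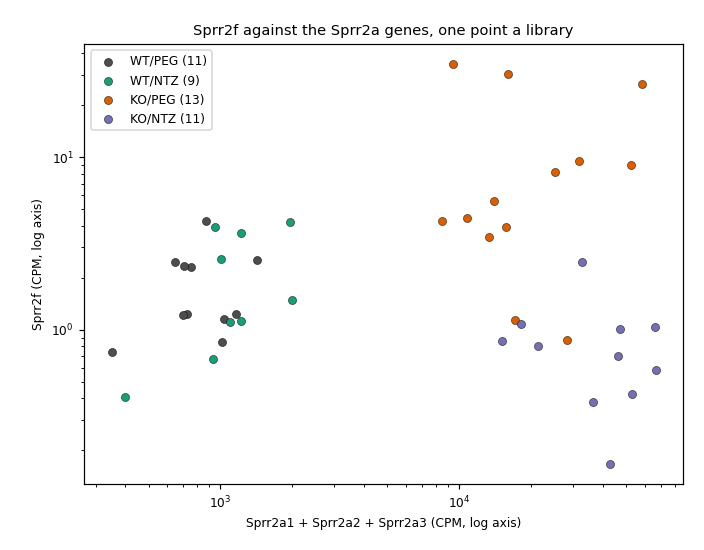
Sprr2f (y axis) against the sum of Sprr2a1, Sprr2a2 and Sprr2a3 (x axis), both in CPM on log axes, 1 point a library, coloured by group. KO libraries of both treatments lie to the right of all WT libraries at 8509 CPM or above, and within them KO/NTZ lies at or below 2.47 CPM of Sprr2f while KO/PEG reaches 34.7 CPM.

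Sprr3, Sprr2d, Sprr1b and Sprr2h had their highest values among the 14 libraries. Sprr3, a precursor of oral and forestomach linings, was at least 10.7 CPM in the 14 and at most 4.82 CPM in the other 30, with 534 CPM in WT_117. Sprr2d reached 21.3 CPM and Sprr1b 9.55 CPM in WT_117, and outside the 14 they were at most 0.928 (KO_31) and 0.172 CPM. Within the 14 Sprr2d went down to 0.0972 CPM, so it did not separate them. Sprr2h reached 3 counts in 1 library, WT_118.

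The crosslinkers Tgm1 and Tgm3, which join the precursors into the envelope, were at most 28.9 and 26 CPM, both in WT_117. Outside the 14 they were at most 1.37 and 0.27 CPM. In the KO libraries outside the 14, the transcripts of Sprr1a and the Sprr2a genes were thus present with little transcript of either crosslinker.

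The late differentiation genes also divided. Krtdap, Sbsn and Cnfn, proteins of the differentiating and cornified layers, were at most 1.55, 0.81 and 0.69 CPM outside the 14 and reached 411, 140 and 153 CPM in WT_117. Calml3, a calmodulin-like protein, and Lypd3, a surface protein, reached 77 and 56.2 CPM there. Trex2, a DNA exonuclease of keratinocytes, ranged from 0.176 to 2.72 CPM in WT/PEG (median 0.699), from 0.511 to 15.1 in WT/NTZ (median 5.84), from 2.67 to 9.87 in KO/PEG (median 5.66) and from 3.09 to 10.4 in KO/NTZ (median 5.49). Outside the 14 the genotypes were separate for Trex2, with 0.176 to 1.49 CPM in 9 WT libraries and 2.67 to 9 CPM in 21 KO libraries.

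Cysrt1, a cysteine-rich protein of barrier epithelia, and Serpinb5, the serpin maspin, were present in all libraries. Cysrt1 ranged from 1.17 to 5.69 CPM in WT/PEG (median 3.5), from 1.64 to 39.2 in WT/NTZ (median 10.9), from 3.24 to 19 in KO/PEG (median 8.31) and from 8.84 to 28 in KO/NTZ (median 17.4). Serpinb5 ranged from 10.2 to 23.4, from 9.41 to 40.8, from 18.3 to 51.9 and from 17.6 to 37.8 CPM in the same order. For both genes most KO libraries lay above WT/PEG, and the groups overlapped.

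KO/PEG versus WT/PEG asks what loss of the proton pump subunit did under vehicle. In all, 12 members passed the test, 7 higher and 5 lower, of 34 tested, where 74.7% of all 14901 genes tested passed (37.5% higher and 37.2% lower). The share of members called was below this background. The higher ones were 4 envelope precursors, 2 late genes and the serpin: Sprr1a (log2 fold change 2.43, SE 0.39, adjusted p = 6.04e-07), Sprr2f (2.56, SE 0.48, 8.62e-06), Sprr2a1, Ivl, Trex2 (2.47, SE 0.38, 3.79e-07), Cysrt1 and Serpinb5. Sprr2a1, Ivl, Cysrt1 and Serpinb5 rose by 1.74, 1.98, 1.53 and 0.84 on the log2 scale, with adjusted p = 3.89e-05, 0.016, 8.27e-05 and 3.6e-05, where reads given to Sprr2a1 may belong to its copies. These 7 stayed called in each of 44 fits that left out 1 library.

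The 5 lower members were Dsp, the cadherins Dsg1a, Dsg3 and Dsc3, and Tgm3. Dsg1a, which shares 41.4% of its 31-base words with other genes, fell by 3.90 (SE 1.13, adjusted p = 0.00224), Dsc3 by 1.95 (SE 0.66, 0.0076), Dsg3 by 2.42 (SE 0.91, 0.0161) and Tgm3 by 2.83 (SE 1.03, 0.0131), all on the log2 scale. Dsg3 was no longer called without WT_130 (adjusted p = 0.126), nor Tgm3 without WT_172_WT_PEG_2 (adjusted p = 0.118), both among the 14. Dsg1a had 18 to 31 counts in the 4 WT/PEG libraries among the 14 and 0 or 1 in the other WT/PEG libraries. Dsc3 was not called without the 14. The median log2 fold change of the 34 members was -0.28, against 0.00 for all genes. Krt13 (0.01, SE 0.91), Krt5 (0.03, SE 1.10) and Lor (-0.06, SE 1.09) had standard errors of about 1, and leaving out KO_109 alone raised the count of members called to 24, 7 higher and 17 lower. The share of all genes called was not counted for that fit, and with all libraries it was 74.7%.

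Without the 14 libraries, 18 members were called higher and 1 lower of 27 tested in KO/PEG versus WT/PEG, where 63.5% of 15622 genes passed (32.4% higher). These values describe the 30 libraries left, since libraries high in squamous genes were removed from each group, 4 of 11 WT/PEG and 1 of 13 KO/PEG. The genes used for that choice rise with many members, so the direction of these counts was partly fixed by it. Dsg1a, Dsg3 and Tgm3, called lower with all libraries, did not pass the filter on low counts here and were not tested. Krt13 rose by 4.88 on the log2 scale (SE 0.80, adjusted p = 1.04e-05), Krt4 by 2.54 (SE 0.62, 0.000928) and Trex2 by 3.07 (SE 0.32, 7.53e-09), and Tgm1, Lor, Krt1 and Krt10 by 1.62, 1.18, 1.44 and 0.57. Ivl was called too (adjusted p = 4.21e-05), with no size given because Ivl was at most 0.107 CPM in the WT libraries left. Krt5, Krt14 and Krt15 lost the call without KO_31, and Krt16 lost it without WT_120. Without the 14 and also KO_31 and KO_110 of KO/NTZ, 15 were higher and 1 lower of 24 tested, where 63.2% of genes passed (32.3% higher and 30.9% lower). Of the 27 members tested with and without the 14, 14 changed the sign of their fold change, and 8 of these were called higher without the 14 (Krt1, Krt10, Krt14, Krt16, Krt4, Lor, Sprr3 and Tgm1).

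**Figure D5:**
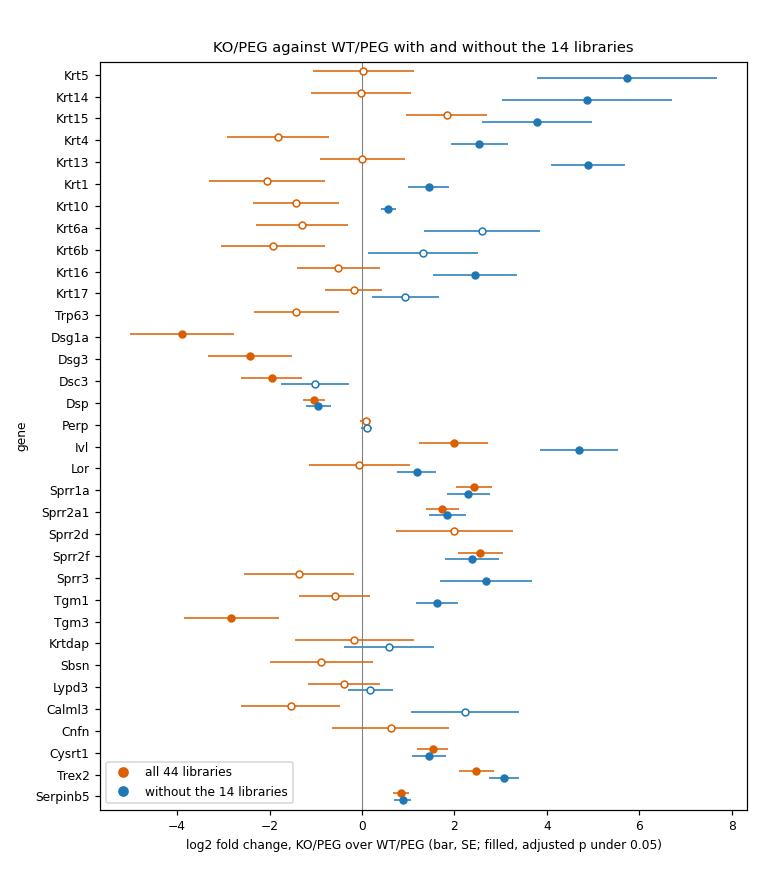
Log2 fold change of the members (y axis) in KO/PEG over WT/PEG (x axis), with all 44 libraries and without the 14, where bars are SE and filled points have an adjusted p under 0.05. Sprr1a, Sprr2a1, Sprr2f, Cysrt1, Serpinb5 and Dsp change little between the fits, while Krt13 moves from 0.01 to 4.88 and Krt4 from -1.82 to 2.54. Points of genes under 3 counts in the WT libraries left, such as Ivl and Krt5, depend on the prior count.

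KO/NTZ versus KO/PEG asks what gastrin receptor blockade did in mice without acid. Of the 34 members 1 passed, Sprr2f, which fell by 3.62 on the log2 scale (SE 0.51, adjusted p = 9.13e-06), where 5.56% of all genes passed (2.97% higher and 2.6% lower). None passed as higher by edgeR or by DESeq2, and 2 had an unadjusted p under 0.05 in that direction by edgeR. Of all 14901 genes tested, 3713 had an unadjusted p under 0.05 in either direction. The median log2 fold change of the members was 0.60, against -0.01 for all genes. Leaving out KO_109 raised the count to 9 higher and 1 lower. The share of all genes called was not counted for that fit, and with all libraries it was 5.56%. Sprr2f remained called in each of 44 fits without 1 library, with adjusted p of at most 3.67e-05.

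Without the 14 libraries, Krt13 was higher in KO/NTZ than in KO/PEG by 1.92 on the log2 scale (SE 0.52, adjusted p = 0.0294), and Sprr3 by 2.06 (SE 0.62, 0.0487), where 4.74% of genes passed (2.8% higher). In these libraries Krt13 in 6 of 9 KO/NTZ was above the highest of 12 KO/PEG. Both calls were fragile: that of Krt13 was lost without KO_29 or KO_30, and that of Sprr3 changed in 23 of 30 fits without 1 library. Sprr2f fell by 3.78 (SE 0.59, adjusted p = 0.000466).

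WT/NTZ versus WT/PEG asks the same of WT mice. Of the 34 members 2 passed, both higher, where 1.03% of all genes passed (0.00671% lower): Trex2 (log2 fold change 2.43, SE 0.41, adjusted p = 0.00133) and Cysrt1 (1.87, SE 0.35, adjusted p = 0.00417). The log2 fold change was above 0 for 33 of the 34, with a median of 2.49 against -0.01 for all genes. By edgeR 24 of the 34 had an unadjusted p under 0.05, as did 1166 of all 14901 genes tested. Many members passed the filter on low counts through the 14 libraries, 7 of them WT/NTZ. These values are thus partly fixed by the filter and are no separate support for a rise. The 14 libraries moved with this comparison, since they made up 7 of 9 WT/NTZ and 4 of 11 WT/PEG libraries. Skeletal muscle genes moved with it too, with 3 of 4 tested higher (Acta1, Mylpf and Tnnt3, median log2 fold change of the 4 3.11) and 0 without the 14, and their part in the result was not tested. Without them 0 members passed by edgeR, 0 had an unadjusted p under 0.05, and 0 of 15622 genes passed (165 at an unadjusted p under 0.05), with only 2 WT/NTZ libraries left. There Trex2 had a log2 fold change of 0.66 (SE 0.52) and Cysrt1 of 0.51 (SE 0.58). Whether NTZ altered these genes in WT mice and whether more squamous tissue was sampled in WT/NTZ cannot be told apart.

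A further fit of all 44 libraries held the sum of Spink5, Asprv1, Flg, Rptn and Hrnr, 5 genes outside the set, as a covariate. In that fit 18 members were higher and 1 lower in KO/PEG versus WT/PEG, where 75% of all genes passed (37.9% higher and 37.1% lower). The counts were 2 and 2 in KO/NTZ versus KO/PEG (5.46% of genes passed, 2.96% higher and 2.5% lower), 0 and 0 in WT/NTZ versus WT/PEG (0.094%), 12 and 2 in KO/NTZ versus WT/NTZ (69.3%, with 34.6% in each direction) and 0 and 1 for the difference of the NTZ effect (0.463%, 0.121% higher and 0.342% lower).

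KO/NTZ versus WT/NTZ, which shares its samples with the comparisons above, had 2 members higher and 20 lower of 34, where 72.4% of all genes passed (35.6% higher and 36.8% lower). Sprr1a was higher by 1.94 and Sprr2a1, with the same uncertainty, by 1.46 on the log2 scale. The lower ones included Krt1, Krt10, Krt4, Lor, Sprr3, Tgm1, Trp63, Dsp and Sprr2f. Apart from Dsp and Sprr2f, those named were genes high in the 7 WT/NTZ libraries. Sprr2f, at most 4.2 CPM in WT/NTZ, lost the call in 5 of 44 fits without 1 library. Without the 14 libraries 8 members were higher and 1 lower, where 47.4% of genes passed, again with 2 WT/NTZ libraries. The direction was again partly fixed by the choice of libraries.

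A test of whether NTZ acted differently by genotype passed for 2 members, where 0.96% of all genes passed (0.242% higher and 0.718% lower). For Sprr2f the effect in KO less that in WT was -3.85 on the log2 scale (SE 0.71, adjusted p = 0.00798), and for Trex2 -2.33 (SE 0.53, adjusted p = 0.0197). Without the 14 libraries these were -2.84 (SE 1.21) and -0.65 (SE 0.58), with adjusted p = 0.919 for both, where 0.0192% of genes passed.

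The other genes of squamous epithelium form a list of 36 that shares no member with the set. In KO/PEG versus WT/PEG 8 were higher and 11 lower of 32 tested, with a median log2 fold change of -0.70, where 74.7% of all genes passed. Ly6d, a surface protein, rose by 4.66 on the log2 scale (SE 0.40, adjusted p = 4.16e-13), Anxa8, an annexin, by 4.90 (SE 0.53, 1.67e-10), and Sfn, an epithelial 14-3-3 protein, by 3.60 (SE 0.42, 1.2e-09). Outside the 14 libraries Anxa8 was at 0 to 0.776 CPM in 9 WT and at 6.28 to 84.2 CPM in 21 KO libraries, without overlap. Sostdc1, a secreted inhibitor of growth factor signals, fell by 4.16 (SE 0.43, 6.42e-11). In KO/NTZ versus KO/PEG 2 were higher and 0 lower (5.56% of all genes passed), and in WT/NTZ versus WT/PEG 6 were higher and 0 lower (1.03%). The list holds Spink5, Asprv1, Flg, Rptn and Hrnr, the 5 genes that set the 14 libraries apart. Its counts without the 14 libraries are thus partly fixed by that choice. They were 11 higher and 7 lower of 25 tested (63.5%), 3 and 1 (4.74%), and 0 and 0, in the same order of comparisons.

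As a description over 44 libraries with group means removed, genes outside the set whose log2 CPM was among the most like that of the summed basal keratins were Pkp1 (r = 0.93), Trim29 (0.90), Spink5 (0.90), Prss27 (0.89), Col17a1 (0.89), Dmkn (0.88), Lgals7 (0.87), 4833423E24Rik (0.87) and Hoxc8 (0.86). Within the set Calml3 (0.94), Trp63 (0.93) and Sprr3 (0.91) were closest. Dsp (-0.01), Sprr2a1 (-0.07), Sprr2f (0.29) and Sprr1a (0.38) were farthest among the members present in most libraries. All points share the same libraries.

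Promoters of 3 envelope precursors that rose in KO mice are shown because AP-1, the Fos and Jun factor family, is known to bind before envelope genes. The letters TGANTCA were searched on both strands in the 250 bases before the RefSeq start (GRCm38.p6). They were found in 12 of the 24 members searched (50%) and in 6.75% of all 32851 promoters of that length. These shares differ in unit, since a member counted if any of its promoters matched, and Krt13 and Tgm1 had 2 each. The remaining members, Dsg1a, Dsg3 and Dsc3 among them, were not searched. The related genes Sprr2d, Sprr2f and Sprr2h held the letters at 193, 197 and 198 bases, so the 12 are not separate hits. The letters are in capitals below. Sprr1a (chr3:92485882-92486131, minus strand) holds them at 146 and 116 bases before the start, Ivl (chr3:92573736-92573985, minus strand) at 116 and Sprr2f (chr3:92364937-92365186, plus strand) at 197.
Sprr1a: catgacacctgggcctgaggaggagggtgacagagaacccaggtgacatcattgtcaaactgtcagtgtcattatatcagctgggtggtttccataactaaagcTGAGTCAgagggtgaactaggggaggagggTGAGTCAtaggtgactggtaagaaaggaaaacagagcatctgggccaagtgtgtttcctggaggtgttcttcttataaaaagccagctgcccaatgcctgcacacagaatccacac
Ivl: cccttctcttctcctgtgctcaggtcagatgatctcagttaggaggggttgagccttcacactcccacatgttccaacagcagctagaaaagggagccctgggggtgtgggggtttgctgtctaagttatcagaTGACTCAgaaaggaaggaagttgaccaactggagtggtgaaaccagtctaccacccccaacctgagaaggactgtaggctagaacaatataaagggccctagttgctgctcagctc
Sprr2f: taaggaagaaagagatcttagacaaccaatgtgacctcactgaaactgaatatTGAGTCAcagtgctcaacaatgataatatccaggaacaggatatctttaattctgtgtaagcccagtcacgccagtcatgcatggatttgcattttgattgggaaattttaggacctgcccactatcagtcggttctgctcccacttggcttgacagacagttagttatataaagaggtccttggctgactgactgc
The letters were also present before Lor, at 48 bases, and Sprr2d, at 193, which were at most 4.14 and 0.928 CPM outside the 14 libraries. Of the 7 members that rose in KO/PEG, Cysrt1 (161 bases) and Serpinb5 (140 bases) held them too, and Trex2 and Sprr2a1 did not. A match of letters is a description and no evidence of binding.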

How the data were processed

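Messenger RNA of ventral gastric corpus biopsies was sequenced by the authors as single reads of 75 cycles with a stranded kit. They quantified GRCm38 transcripts with kallisto 0.42.4 and deposited estimated counts for 94080 transcripts in 44 libraries, without normalization. The authors' Sleuth test was not repeated here.

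Counts were summed by GENCODE vM21 gene name (1708 unpaired transcripts held 0.329% to 1.3% of a library's counts) and rounded. The edgeR 4.0.16 quasi-likelihood test (R 4.3.3, TMM, filterByExpr with a minimum count of 10 and total of 15) was fitted to all 44 libraries with a mean per group, and p-values were adjusted by Benjamini-Hochberg over 14901 genes with a threshold of 0.05. Floors of 3 counts cover counting error only. The test was checked on simulated data. Alternatives were RLE size factors, no filter, only the groups compared, the 2 libraries of WT_172 summed, KO_110 left out, 1 class of animal numbers or that class as a covariate, DESeq2 1.42.0, limma-trend 3.58.1, transcripts, summed paralogs and each library left out. Fits without the 14 libraries, with the sum of the 5 squamous genes outside the set as a covariate, and without KO_31 and KO_110 of KO/NTZ were chosen after seeing the data. Members and lists were chosen with earlier results of these data known. The text accounts for all 37 members, the genes of each named list with the smallest p, and the 10 genes most like the basal keratins, of which 1 is not reported here. Marker lists of other cell types served to check the tissue.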

Additional observations from a re-analysis of the deposited data

Results flagged for a closer look

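In WT/NTZ, 1 library stood apart from the other 8 for 11 of the 37 members, WT_118 for Sprr2h and WT_117 for the rest. The cut-off sets apart about 1 in 20 groups of this size when values are normally distributed. Values of these members are skewed and many rise together, so that rate does not apply to the 11. WT_117 was at 30.6 CPM for Krt15 (next highest 8.49), 1074 for Krt4 (223), 1731 for Krt13 (485), 1.14 for Krt84 (0.48), 619 for Lor (284), 9.55 for Sprr1b (3.19), 26 for Tgm3 (9.14), 77 for Calml3 (27), 153 for Cnfn (72.6) and 39.2 for Cysrt1 (16.6). WT_118 was at 0.304 CPM for Sprr2h (next highest 0.08), which is 5 counts. The basal keratin Krt15 is in this list with suprabasal and outer-layer genes, so WT_117 is high in genes of every layer of the epithelium.

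By the edgeR test of the difference itself, the response to NTZ in KO less that in WT was -3.85 for Sprr2f (adjusted p = 0.00798) and -2.33 for Trex2 (adjusted p = 0.0197), on the log2 scale. Sprr2f fell in KO mice given NTZ, while Trex2 was higher in WT mice given NTZ, 7 of 9 of which were among the 14 libraries high in squamous genes.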

How the results depend on the processing

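Of 1387 values under alternatives, over 24 pairs of a gene and a comparison, 1343 kept their direction and side of the threshold, 32 lost the call, 8 gained it and 4 reversed. The cause was not tested. The share of all genes called is known only for the fits where it is given above, so the other counts below stand without that background. Members called in KO/PEG versus WT/PEG numbered 7 with only the groups compared, where 14 members were tested, 7 in 1 class of animal numbers, 19 without the 14 libraries, 19 with the outer-layer genes as a covariate, and 11 to 24 without 1 library. In KO/NTZ versus KO/PEG they numbered 2 with number class as a covariate, 0 with paralogs summed (Sprr2f is then part of the family), 3 without the 14, 4 with the covariate, 2 without the 14, KO_31 and KO_110 of KO/NTZ, and 1 to 10 without 1 library. In WT/NTZ versus WT/PEG they numbered 0 with only the groups compared, by limma-trend, without the 14, with the covariate and without the 14, KO_31 and KO_110 of KO/NTZ, 10 with number class as a covariate, 22 in 1 class of numbers, whose 4 WT/NTZ libraries are all among the 14, and 2 to 6 without 1 library. In KO/NTZ versus WT/NTZ they numbered 6 in 1 class of numbers, 12 with number class as a covariate, 9 without the 14, 14 with the covariate, 10 without those and KO_31 and KO_110 of KO/NTZ, and 18 to 26 without 1 library. For the difference of the NTZ effect they numbered 1 by limma-trend, with paralogs summed and with the covariate, 0 without the 14 and without those plus KO_31 and KO_110 of KO/NTZ, and 2 to 3 without 1 library. Other squamous genes called in WT/NTZ versus WT/PEG numbered 10 by DESeq2. Among those 24 pairs the called or named values that changed sign were of Dsg3 and Krt4 in the KO/PEG and WT/PEG comparison: Dsg3 was at 0.55 with the covariate, and Krt4 at 2.54 without the 14, 1.32 with the covariate and 2.39 without those plus KO_31 and KO_110 of KO/NTZ. Under 0.137 to 0.495 CPM a library cannot show a gene. No paired analysis was possible because the groups compared share at most 1 animal number, KO_110 in KO/PEG and KO/NTZ.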
